A study of Saccharomyces cerevisiae with 222 samples.

Results

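The 39 genes described here encode the nuclear parts of the yeast respiratory chain and of the mitochondrial ATP synthase: 3 NADH dehydrogenases, 4 subunits of succinate dehydrogenase, 9 of the cytochrome bc1 complex, 2 forms of cytochrome c, 9 genes of cytochrome c oxidase and 12 of ATP synthase. They were chosen by gene symbol and not by any measured value, and all 39 were found among the 5818 genes of the tables. Budding yeast ferments glucose and represses respiratory genes while glucose lasts. Sporulation starts in a medium with acetate as the carbon source, which cells can use only by respiring, so respiration is needed for meiosis. In the chain, electrons from NADH and succinate reach ubiquinone, the bc1 complex passes them to cytochrome c, cytochrome c oxidase passes them to oxygen, and the ATP synthase uses the resulting proton gradient. The activator subunit Hap4 raises the transcription of many of these genes, and Rox1 represses the genes used under low oxygen. Within the list, COX5A and COX5B, CYC1 and CYC7, and NDE1 and NDE2 are pairs of alternative genes for the same step, with COX5B and CYC7 known as the low-oxygen forms.

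The study asked how the DNA-binding regulator Ume6 and its meiotic partner Ime1 control transcription in SK1 yeast, with poly(A) RNA-seq of 222 libraries in 74 groups of 3, in 4 experiments. The mitotic experiment used haploid cells in rich glucose medium. There, ume6Δ was compared with wild type (WT), and a depletion strain, UME6-AID-3V5 with LexA-ER-B112 and 4xlexO-OsTIR, was compared with a control strain that carried the same alleles but no OsTIR. Both of these strains received β-estradiol at -30 min and 200 µM auxin at 0 min, and were sampled from -30 to 120 min. The meiotic experiment used diploids with copper-inducible IME1 and IME4 (pCUP1-IME1, pCUP1-IME4), UME6-AID-3V5 and LexA-ER-GAL4AD, with 8xlexO-OsTIR in the depletion strain and without it in the control. Both received 5 nM β-estradiol and 200 µM auxin at 0.5 h in sporulation medium and 50 µM copper sulfate at 2 h, and were sampled up to 6 h. The rescue experiment used diploids that entered meiosis by starvation, with IME1 or sfGFP-IME1 combined with UME6(T99N)-3V5-aGFP, UME6(T99N)-3V5, UME6-3V5 or untagged UME6, at 0, 2, 4 and 6 h. T99N is a substitution in Ume6 that weakens its interaction with Ime1, and aGFP is a nanobody that binds GFP, so that sfGFP-Ime1 is tethered to Ume6(T99N). In the activation domain (AD) experiment, ime1Δ diploids with UME6(T99N)-3V5-aGFP carried sfGFP-B112, sfGFP-IME1, B112 or IME1 under the IME1 promoter, where B112 is a heterologous activation domain that is tethered only when fused to sfGFP.

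Library totals ranged from 4322697 to 23448759 counts, apart from 1 library of 44189 counts (replicate 2 of sfGFP-IME1; UME6-3V5 at 4 h in the rescue experiment), which enters no comparison. The libraries labelled replicate 1 in the 0 h and the 2 h group of the strain with IME1 and UME6-3V5 had their columns exchanged between the count table and the TPM (length-corrected transcript abundance) table, and both were left out. UME6 itself averaged 0.239 ± 0.277 TPM in ume6Δ and 35.5 ± 0.913 TPM in WT (SD, n = 3 each). Depletion acts on the Ume6 protein, which these data do not measure. UME6 mRNA was higher in depleted than in control cells of the mitotic course by log2 changes of 0.47 to 0.52 at the times from 15 to 120 min (edgeR adjusted p from 0.00065 to 0.00226). The study calls its replicates biological, while the labels only number them and do not say whether they were separate cultures. Each p-value sets a change against the spread between such libraries, estimated over all groups of an experiment. Reads from stretches that are nearly identical between related genes, such as SDH1 and SDH9 or SDH4 and SHH4, could have been split between them, which was not measured here. All RNA came from bulk cultures, in which a change of the share of cells at a stage and a change per cell cannot be told apart. All 39 genes passed the filter on low counts in every experiment and were tested in all 21 comparisons.

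Levels differed widely among the 39 genes. On the TPM scale, which corrects for gene length, COX9 was the highest of them in 71 of 74 groups, with group means between 2352 and 14530 TPM. COX9 encodes a small subunit of cytochrome c oxidase, and its coding length of 180 bases makes its TPM sensitive to the length correction. COX5B was the lowest in 49 groups and NDE2 in 14. NDE2, an external NADH dehydrogenase, also spanned the widest range. Its lowest group mean was 1.03 TPM in mitotic WT cells and its highest was 1217 TPM in the B112 strain of the AD experiment at 2 h. CYC1 spanned 18.7 to 3587 TPM, with the maximum in mitotic WT cells, and SDH4 spanned 56.5 to 6046 TPM, with the minimum there. The other members varied between 4.51-fold (QCR9) and 45.8-fold (SDH1) over the 74 groups. Summed over the 39 genes, the level was lowest in the untagged UME6 strain with IME1 at 6 h (17030 ± 1058 TPM) and highest in the sfGFP-B112 strain at 2 h (79460 ± 8957 TPM, SD, n = 3 each).

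How far genes of one complex shared a pattern over the 74 groups differed between complexes, as a description of means that share libraries and normalisation. The 4 succinate dehydrogenase genes had a median Spearman rho to the other 3 of 0.83 (SDH3) to 0.95 (SDH2). ATP synthase genes had medians of 0.62 (ATP20) to 0.83 (ATP1) within their complex. The NADH dehydrogenases had low medians among themselves, 0.08 for NDE1, 0.16 for NDE2 and 0.29 for NDI1, each below its median with all the other members (0.35, 0.17 and 0.57). For QCR10 of bc1 too, the median within the complex (0.44) was below that with all the other members (0.59). The same held for COX6, COX9, COX13 and COX5B of cytochrome c oxidase and for both cytochrome c genes. COX5B stood apart. Its median rho with the other 38 genes was -0.14, and the gene closest to it was CYC7 (0.70). The alternative pairs did not rise and fall together: rho was -0.41 for COX5A and COX5B, -0.19 for CYC1 and CYC7 and -0.06 for NDE1 and NDE2.

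**Figure D1:**
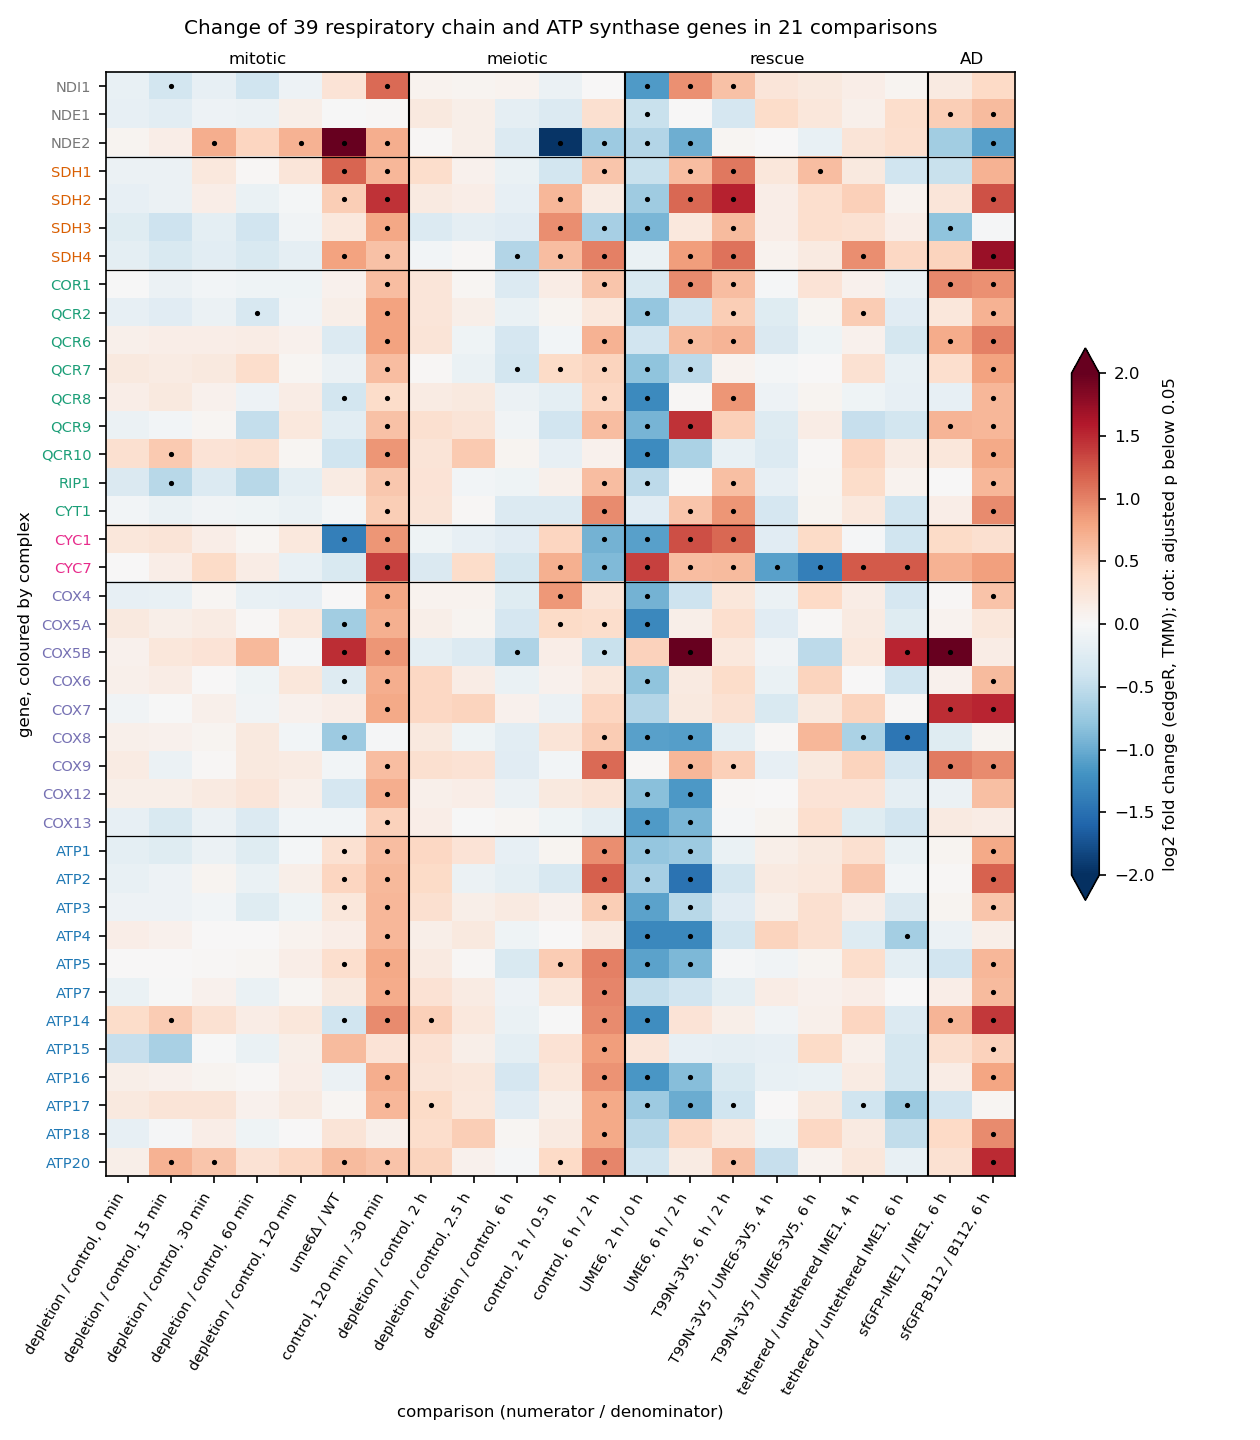
Each row is 1 of the 39 genes, coloured by complex, and each column is 1 of 21 comparisons. Colour gives the log2 fold change from edgeR (red is higher in the group named first) and a dot marks an adjusted p below 0.05. The mitotic control at 120 min against -30 min had 35 dots, whereas the 5 mitotic and 3 meiotic depletion columns had between 0 and 5 each.

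Constitutive loss of Ume6 was read in ume6Δ and WT cells growing on glucose. The study reports a severe growth defect in ume6Δ and holds it a likely reason for the many expression changes there. Direct effects of Ume6 loss and effects of poor growth cannot be told apart in this comparison. Below, levels are given as normalised CPM (counts relative to the library total, scaled by TMM library factors), which are comparable between libraries of 1 experiment for 1 gene but not between genes. In ume6Δ cells, 10 of the 39 genes were higher and 6 were lower than in WT (edgeR quasi-likelihood test, adjusted p below 0.05), against 27.5% and 27.8% of all genes tested, and the median log2 fold change of the 39 was 0.08. The largest increase was that of NDE2, with 20.4, 16.2 and 16.9 CPM in ume6Δ and 1.17, 2.78 and 1.92 CPM in WT. This is a log2 fold change of 3.19 (SE 0.24, edgeR adjusted p = 1.56e-13). Even so, NDE2 made up only 2.38% ± 0.346 of the summed NDE1 and NDE2 TPM in ume6Δ and 0.262% ± 0.104 in WT (SD, n = 3 each).

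The subunit 5 genes of cytochrome c oxidase moved in opposite directions in ume6Δ. COX5B reached 9.99, 9.45 and 11.7 CPM in ume6Δ, against 3.81, 4.17 and 2.97 CPM in WT, a log2 fold change of 1.48 (SE 0.22, edgeR adjusted p = 1e-06). COX5A, the form used in air, measured 391, 381 and 396 CPM in ume6Δ and 685, 666 and 535 CPM in WT (log2 fold change -0.69, SE 0.11, edgeR adjusted p = 3.71e-06). The groups did not overlap for either gene, and the COX5B share of the pair was 4.15% ± 0.373 in ume6Δ and 0.934% ± 0.0658 in WT (SD, n = 3 each). CYC1, the main cytochrome c, had 333, 327 and 259 CPM in ume6Δ against 790, 921 and 644 CPM in WT (log2 fold change -1.36, SE 0.14, edgeR adjusted p = 7.24e-10). Its partner CYC7 was not called (log2 fold change -0.31, edgeR adjusted p = 0.207). COX8, another small oxidase subunit, fell by 0.73 on the log2 scale.

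Succinate dehydrogenase, which is also an enzyme of the TCA cycle, had 3 of 4 genes higher and 0 lower in ume6Δ, with a median log2 fold change of 0.65. SDH1, the catalytic flavoprotein, had 210, 216 and 217 CPM in ume6Δ and 86.4, 82.8 and 120 CPM in WT, with no overlap (log2 fold change 1.16, SE 0.15, edgeR adjusted p = 5.61e-08). SDH4, a membrane anchor, rose by 0.81 and SDH2, the iron-sulfur subunit, by 0.49 on the log2 scale. Of 12 ATP synthase genes, 5 rose and 1 fell, with ATP20 having the largest change (0.63), whereas 0 of 9 bc1 genes rose and 1 fell (QCR8, which lost its call without replicate 2 or 3). On the lists of neighbouring pathways, 11 of 13 TCA cycle genes rose and 0 fell in ume6Δ (median 0.87), while the 59 assembly factors of these complexes split into 13 higher and 12 lower. SDH9, a gene related to SDH1, rose by 4.09 on the log2 scale (13.3, 13.0 and 9.19 CPM in ume6Δ, 0.781, 0.214 and 1.22 CPM in WT). Neither HAP4 (log2 fold change 0.37, edgeR adjusted p = 0.0771) nor ROX1 (-0.18, adjusted p = 0.181) passed the test.

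Acute depletion of Ume6 in the same medium gave few calls among the 39 genes. At 30, 60 and 120 min their numbers were close to the shares of all genes called. At 0 min, when auxin was added, 0 genes were called (1 at an unadjusted p below 0.05, and 0 with DESeq2), against 0.346% of all genes higher and 0.164% lower. At 15 min, 3 were higher and 2 lower in depleted than in control cells (10.2% and 10.5% of all genes). At 30 min, 2 were higher (4.94% of all genes higher, 3.04% lower), at 60 min 1 was lower (1.88% lower, 4.08% higher), and at 120 min 1 was higher (3.61% higher, 1.99% lower). The median log2 fold change of the 39 lay between -0.08 and 0.07 at these times.

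Among the depletion calls, ATP20, a subunit that joins ATP synthase dimers, recurred. It had 99.6, 111 and 91.8 CPM in depleted cells and 64.4, 58.8 and 64.0 CPM in control cells at 15 min (log2 fold change 0.69, SE 0.15, edgeR adjusted p = 0.00121), and was also higher at 30 min (0.55). At 15 min the other calls were QCR10 and ATP14, which were higher, and RIP1 and NDI1, which were lower, with log2 changes of 0.53, 0.50, -0.56 and -0.37. NDE2 had 12.4, 15.7 and 15.1 CPM in depleted cells and 9.53, 7.90 and 9.05 CPM in control cells at 120 min (0.70, SE 0.20, edgeR adjusted p = 0.0248), and its change at 30 min was 0.72. At 60 min the call was QCR2, a core subunit of bc1 (-0.32, edgeR adjusted p = 0.0376), while DESeq2 called 4 genes. These calls did not withstand the loss of a library. Leaving out replicate 1 or replicate 2 left 0 calls at 15 min, and leaving out replicate 2 left 0 at 30 and at 120 min. The NDE2 calls at 30 and 120 min were each lost without replicate 2 or 3. At 60 min, QCR2 was lost whichever replicate was left out. By contrast, a fit of only the compared groups gave 15, 0 and 0 calls at 15, 30 and 120 min. The COX5B change at 60 min was 0.65 (SE 0.23, edgeR adjusted p = 0.0874). CYC1 and COX5A, which were lower in ume6Δ, had log2 changes between 0.04 and 0.26 and between 0.03 and 0.21 in depleted cells from 0 to 120 min, with no call. The difference between the deletion and the depletion was not tested, since they were set against different control strains.

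The control strain itself changed over the course, and these changes were far larger than those between depleted and control cells. Between -30 and 120 min, 35 of the 39 genes rose and 0 fell, against 27.0% of all genes higher and 27.8% lower, with a median log2 fold change of 0.67. Every complex took part, with medians from 0.61 for bc1 (9 of 9 higher) to 0.73 for cytochrome c oxidase (8 of 9), and 1.12 for cytochrome c (both genes). SDH2 had 131, 99.7 and 139 CPM at 120 min, against 55.8, 41.9 and 35.5 CPM at -30 min (log2 fold change 1.44, SE 0.13, edgeR adjusted p = 1.93e-11). CYC7 had 17.6, 19.0 and 13.9 CPM at 120 min and 6.89, 4.61 and 7.61 CPM at -30 min (1.37, SE 0.20, edgeR adjusted p = 6.18e-07), and NDI1, the internal NADH dehydrogenase, rose by 1.14. Only NDE1, COX8, ATP15 and ATP18 were not called. The neighbouring lists moved the same way for most members: 11 of 13 TCA cycle genes, 32 of 59 assembly factors and 9 of 10 ubiquinone synthesis genes rose. The transcript of HAP4 went the other way, with 196, 246 and 161 CPM at 120 min and 484, 533 and 479 CPM at -30 min (-1.31, SE 0.18, edgeR adjusted p = 2.13e-07), and ROX1 fell by 0.81. Time in culture, β-estradiol and auxin moved together here and cannot be told apart. The labels' replicate numbers paired these samples (correlations of deviations from 0.34 to 0.63 in the 3 pairs), and the fit with the replicate block also called 35 genes.

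In sporulation medium, NDE2 supplied 73.3% ± 4.56 of the NDE1 and NDE2 TPM in the meiotic control at 0.5 h, and CYC7 supplied 36.7% ± 2.97 of the cytochrome c TPM (SD, n = 3 each). The COX5B share was 3.97% ± 0.907 at that time and 1.35% ± 0.161 at 3 h. These levels come from separate experiments and strains and were not tested against the mitotic ones.

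**Figure D2:**
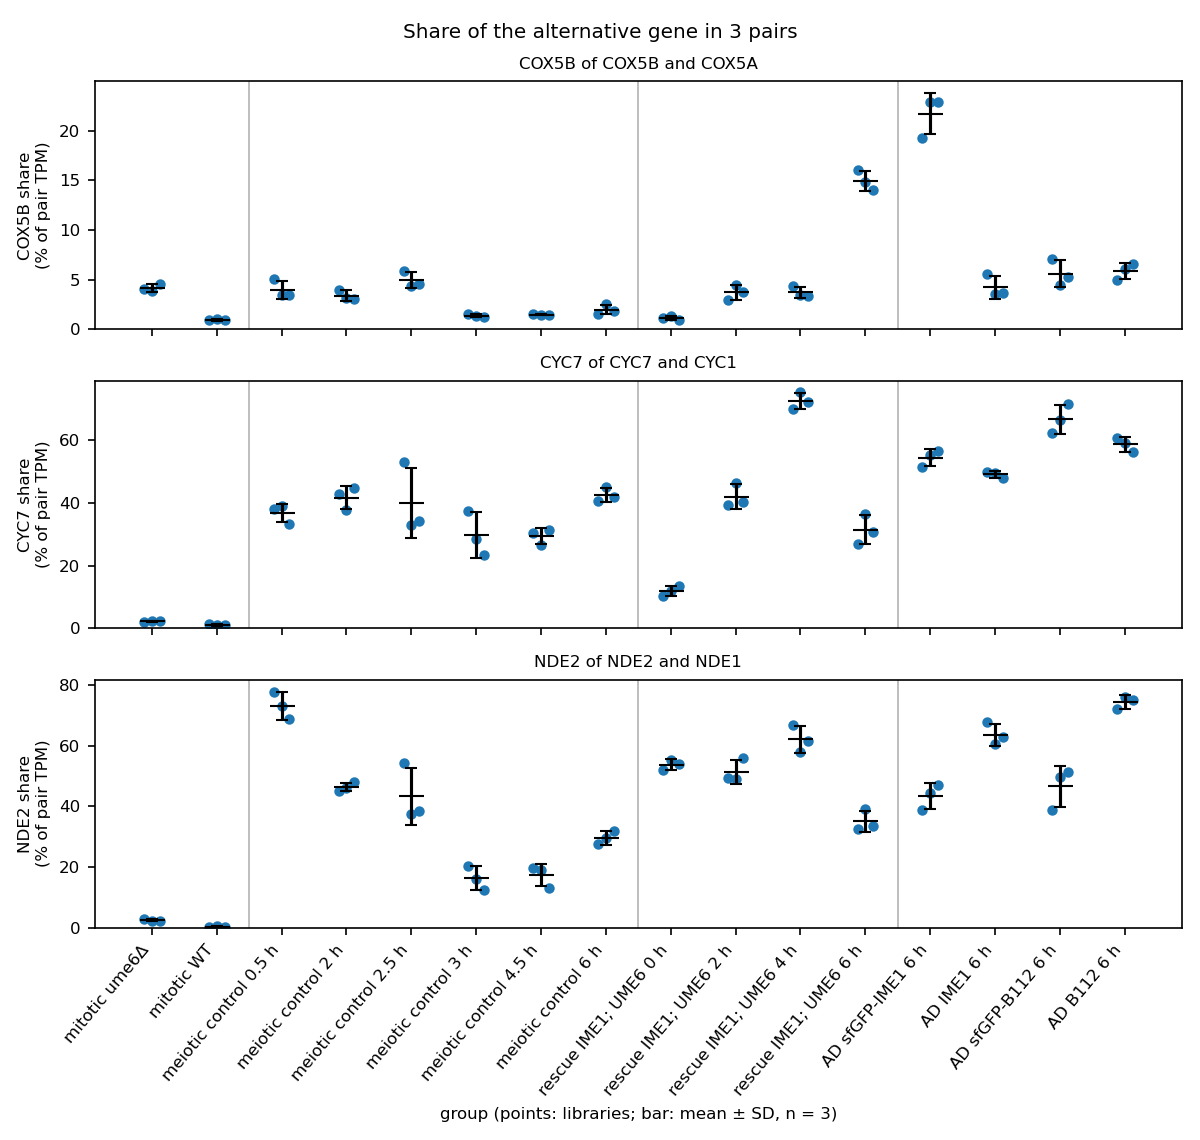
The share of the alternative gene in the TPM of its pair is plotted for 16 groups, with 1 point a library and the mean ± SD of 3 libraries as a bar. COX5B averaged 21.7% in the AD sfGFP-IME1 strain and 15.0% in the untagged UME6 strain with IME1 at 6 h and at most 5.85% in the other groups plotted, while CYC7 and NDE2 were minor in both mitotic groups and reached 72.5% and 74.5% elsewhere.

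Before copper was added, 9 of the 39 genes rose and 1 fell in the meiotic control between 0.5 and 2 h, against 30.9% and 35.5% of all genes. NDE2 was the gene that fell, to 450, 532 and 524 CPM at 2 h, against 2257, 1919 and 1661 CPM at 0.5 h (log2 fold change -1.96, SE 0.16, edgeR adjusted p = 6.84e-12). SDH3, an anchor subunit, had 636, 968 and 938 CPM at 2 h and 551, 399 and 383 CPM at 0.5 h (0.93, SE 0.16, edgeR adjusted p = 9.9e-06). SDH2, SDH4 and CYC7 rose by 0.67, 0.61 and 0.71, but each lost its call without replicate 2 (adjusted p = 0.125, 0.0853 and 0.069 in edgeR), and without that replicate 4 genes were called in all. COX4, an oxidase subunit, rose by 0.86. In the TCA cycle list the calls ran the other way, with 1 of 13 higher and 9 lower, led by CIT3 (-4.66) and CIT1 (-1.60), both citrate synthases. Since both drugs were added at 0.5 h, time in the medium, β-estradiol and auxin cannot be told apart in this comparison.

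In the meiotic control, the median of the 39 log2 levels relative to 0.5 h was -0.73 at 2.5 h and 0.68 at 6 h, which carries no test. Between 2 and 6 h in the control, 23 of the 39 genes rose and 5 fell, against 34.2% and 34.9% of all genes, with a median of 0.49. Of ATP synthase, 11 of 12 genes rose and 0 fell (median 0.92). ATP2, the catalytic beta subunit, had 3570, 3536 and 3376 CPM at 6 h and 1633, 1552 and 1381 CPM at 2 h (log2 fold change 1.20, SE 0.15, edgeR adjusted p = 2e-08). COX9 had 347, 455 and 330 CPM at 6 h and 169, 150 and 193 CPM at 2 h (1.14, SE 0.20, edgeR adjusted p = 9.57e-06). The groups did not overlap for either gene. SDH4 rose by 1.0 on the log2 scale. Of the bc1 genes, 7 of 9 rose.

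Cytochrome c went against this trend. CYC1 had 95.9, 78.6 and 80.2 CPM at 6 h and 125, 198 and 165 CPM at 2 h (-0.94, SE 0.20, edgeR adjusted p = 0.00016), and CYC7 had 70.3, 69.1 and 62.0 CPM at 6 h and 99.6, 128 and 142 CPM at 2 h (-0.88, SE 0.20, edgeR adjusted p = 0.000323). The other 3 genes that fell were NDE2 (-0.72), SDH3 (-0.66) and COX5B (-0.44), and COX5B lost its call without replicate 1 or 3. HAP4 rose by 0.38, and 8 of 13 TCA cycle genes rose with 0 lower. Time and copper induction cannot be told apart in this comparison.

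The study reports that Ume6 protein was depleted less strongly in the meiotic than in the mitotic experiment. Depletion of Ume6 in meiosis gave few calls by this test among the 39 genes, while the share of all genes called grew from 2 to 6 h. At 2 h, before copper, 2 were higher and 0 lower in depleted than in control cells (1.85% and 2.9% of all genes). They were ATP14 (0.48) and ATP17 (0.39), with an edgeR adjusted p of 0.0494 each, and both were lost without replicate 2 or without replicate 3. The median log2 fold change of the 39 at 2 h was 0.24 beside 0.02 for all genes, and 9 genes were higher and 0 lower at an unadjusted p below 0.05. In replicate 3 of the depletion strain at 2 h, 37 of the 39 genes lay above the mean of the other libraries (median 0.38), and without replicate 3 the median of the comparison was 0.07. The median absolute deviation of all genes in that library was 0.15. At 2.5 h, 0 genes were called (2 at an unadjusted p below 0.05, and 0 with DESeq2), against 3.35% and 4.92% of all genes. The median was 0.11 there, and without replicate 3, in which 36 of the 39 genes lay above the other depletion libraries (median 0.41), it was -0.01. Over all genes the median absolute deviation of replicate 3 at 2.5 h was 0.12. At 6 h, 0 were higher and 3 lower (6.5% and 7.11%), with a median of -0.18 over the 39.

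The 3 genes lower at 6 h of depletion belong to different complexes. SDH4 had 818, 1016 and 846 CPM in depleted cells and 1447, 1394 and 1184 CPM in control cells (-0.59, SE 0.15, edgeR adjusted p = 0.00593). COX5B had 9.61, 6.01 and 7.94 CPM in depleted cells and 9.76, 15.5 and 10.8 CPM in control cells (-0.62, SE 0.20, edgeR adjusted p = 0.035). QCR7, a small bc1 subunit, was lower by a log2 change of -0.37. The libraries of the 2 strains did not overlap for these genes, but no call held without every library. Without replicate 2 none of the 39 was called and the COX5B change was -0.23, without replicate 1 only COX5B was called, and without replicate 3 there were 5 calls. Assembly factors fell for 12 of 59 with 0 higher. CIT3 and CIT1, which had fallen between 0.5 and 2 h in the control, were lower in depleted than in control cells at 6 h by log2 changes of -1.16 and -0.83.

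**Figure D3:**
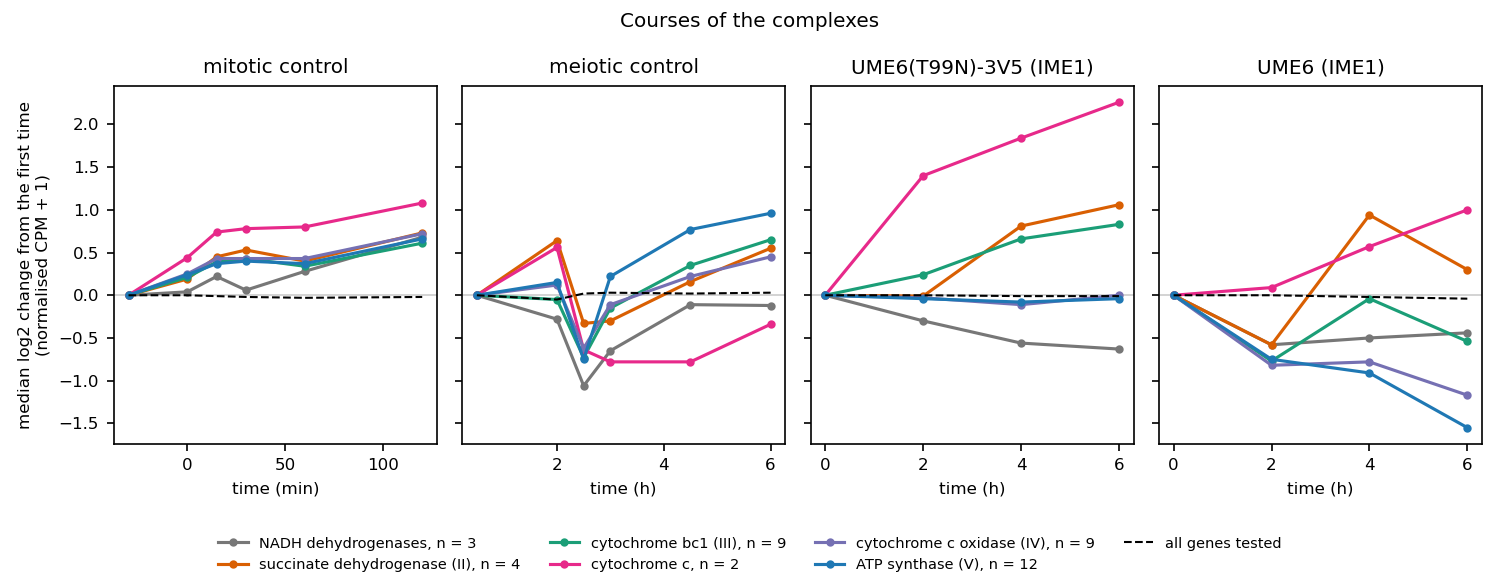
The lines give the median over the genes of each complex of the log2 change from the first time of the course, in normalised CPM + 1, for the mitotic control (min) and, in h, the meiotic control, UME6(T99N)-3V5 with IME1 and untagged UME6 with IME1. ATP synthase ended at 0.96 in the meiotic control and at -1.55 in the UME6 strain, and the dashed median of all genes tested stayed within 0.05 of 0.

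In the strain with untagged UME6 and IME1 that entered meiosis by starvation, most of the 39 genes fell early. Between 0 and 2 h, 26 fell and 1 rose, against 33.8% and 33.0% of all genes, with a median of -0.77. ATP4, a stator subunit of ATP synthase, fell to 198, 206 and 192 CPM at 2 h, against 462, 554 and 441 CPM at 0 h (-1.29, SE 0.23, edgeR adjusted p = 1.26e-06). COX5A had 343, 354 and 287 CPM at 2 h and 762, 894 and 747 CPM at 0 h (-1.29, SE 0.27, edgeR adjusted p = 3.83e-05), and QCR8 of the bc1 complex fell by 1.27 on the log2 scale. The exception was CYC7. It rose to 16.8, 22.7 and 15.0 CPM at 2 h, against 6.12, 8.34 and 6.97 CPM at 0 h (1.36, SE 0.30, edgeR adjusted p = 8.39e-05), while CYC1 fell by 1.08. The CYC7 share of cytochrome c TPM was thus 11.98% ± 1.52 (0 h), 41.98% ± 3.86 (2 h), 72.5% ± 2.62 (4 h) and 31.4% ± 4.66 (6 h), each as mean ± SD of 3 libraries. Assembly factors moved with the subunits, with 39 of 59 lower and 5 higher. HAP4 had 138, 144 and 142 CPM at 2 h against 438, 533 and 511 CPM at 0 h (-1.80, SE 0.27, edgeR adjusted p = 2.19e-08), and ROX1 fell by 1.48.

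From 2 to 6 h the complexes of that strain parted. Of the 39 genes, 12 rose and 12 fell, against 34.2% and 42.9% of all genes. Their median was 0.03 with TMM, and in TPM it was -0.46. Relative to the median of all genes, which itself stood at -0.15 with TMM, -0.63 in TPM and 0.02 with DESeq2's size factors (RLE), the median of the 39 was 0.18 under each of the 3 scalings, so these counts are relative to the rest of the transcriptome. COX5B led the increases, with 43.8, 33.4 and 37.9 CPM at 6 h and 6.33, 10.2 and 6.86 CPM at 2 h (log2 fold change 2.32, SE 0.23, edgeR adjusted p = 4.13e-14). Its mean share of the pair was 3.71% (2 h, SD 0.777), 3.70% (4 h, SD 0.537) and 15.0% (6 h, SD 1.03), with n = 3 each. QCR9 of bc1, CYC1 and SDH2 rose by 1.44, 1.29 and 1.15.

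ATP synthase fell in the same interval, with 7 of 12 genes lower and 0 higher (median -0.64). ATP2 had 544, 617 and 659 CPM at 6 h and 1568, 1829 and 1631 CPM at 2 h (-1.47, SE 0.28, edgeR adjusted p = 4.76e-06). ATP4 fell by a further 1.29 on the log2 scale, and the oxidase subunits COX12 and COX8 fell by 1.15 and 1.10. NDE2 fell by 0.98. Succinate dehydrogenase was opposite to ATP synthase, with 3 of 4 genes higher and 0 lower. NDT80, the regulator of the exit from meiotic prophase, averaged 942 ± 93.3 TPM at 6 h and 12.6 ± 1.05 TPM at 2 h in this strain (SD, n = 3 each), and HAP4 rose by 1.68. In the meiotic control of the copper experiment, where ATP synthase rose, NDT80 averaged 18.5 ± 0.439 TPM at 6 h and 13.7 ± 3.09 TPM at 2 h. Its part in these changes was not tested.

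The same interval in the strain with UME6(T99N)-3V5 and IME1 gave 15 genes higher and 1 lower, against 22.7% and 19.6% of all genes, with a median of 0.23. All 4 succinate dehydrogenase genes rose (median 1.07), and so did 6 of 9 bc1 genes and both cytochrome c genes, of which CYC7 (0.63) and, in succinate dehydrogenase, SDH3 (0.63) lost their calls without replicate 1 or 3. SDH2 had 752, 897 and 983 CPM at 6 h and 224, 391 and 290 CPM at 2 h (1.54, SE 0.25, edgeR adjusted p = 7.77e-07). CYC1 rose by 1.15, SDH4 by 1.08 and SDH1 by 1.06. ATP17, the only gene that fell (-0.40), lost its call without replicate 1 (edgeR adjusted p = 0.238) or replicate 2 (0.128). Without replicate 1 the count was 6 genes and without replicate 3 it was 8, the SDH2, SDH4, SDH1 and CYC1 calls being kept each time. NDT80 averaged 15.4 ± 1.11 TPM at 6 h and 9.48 ± 0.334 TPM at 2 h (SD, n = 3 each).

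The change from 2 to 6 h was tested directly between these strains, which differ in the T99N substitution and also in the 3V5 tag. In the T99N strain 11 of the 39 genes had a higher change and 2 a lower one, against 35.8% and 25.7% of all genes, and the median difference of the 39 was 0.39 beside 0.25 for all genes. COX5B differed most, with a log2 change of 0.21 in the T99N strain and 2.32 in the UME6 strain (difference -2.12, SE 0.35, edgeR adjusted p = 3.87e-07). In the UME6-3V5 strain, with the tag but not T99N, COX5B averaged 59.8 TPM at 2 h (without replicate 1) and 69.7 TPM at 6 h. How much of the difference goes with the tag was not tested. ATP2 changed by -0.37 in the T99N strain and by -1.47 in the UME6 strain (difference 1.09, SE 0.39, edgeR adjusted p = 0.0137), a call that was lost without replicate 1 (adjusted p = 0.169) or 2 (0.104). The count was 3, 4 and 8 without replicates 1, 2 and 3. The succinate dehydrogenase genes had differences from 0.25 to 0.45 and no call.

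Set against the equally tagged UME6-3V5 strain, UME6(T99N)-3V5 differed in few of the 39 genes. At 4 h, 0 were higher and 1 lower (14.7% and 13.1% of all genes), and at 6 h, 1 was higher and 1 lower (15.6% and 14.9%). The lower gene was CYC7 both times. It had 33.6, 41.4 and 33.7 CPM in the T99N strain and 70.4, 78.8 and 81.4 CPM in the UME6-3V5 strain at 4 h (-1.08, SE 0.24, edgeR adjusted p = 0.000385). At 6 h it had 37.0, 36.5 and 35.1 CPM in the T99N strain and 97.3, 91.0 and 91.6 CPM in the UME6-3V5 strain (-1.37, SE 0.25, edgeR adjusted p = 1.24e-05). The gene called higher at 6 h was SDH1 (0.61), which lost its call without replicate 1 (edgeR adjusted p = 0.189) or 3 (0.176). The COX5B change at 6 h was -0.53 (edgeR adjusted p = 0.0916), although its libraries did not overlap, with 8.98, 8.41 and 6.84 CPM in T99N and 12.01, 11.96 and 11.31 CPM in UME6-3V5. Fits of only the compared groups called 7 genes at 4 h and 10 at 6 h. A pair of related genes moved by more than any of the 39 at 6 h: NCA3, a factor for ATP synthase biogenesis (2.26), and SHH4, a relative of SDH4 (2.25). HAP4 fell by 0.73 in the T99N strain.

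Tethering sfGFP-Ime1 to Ume6(T99N) through the nanobody was compared with the same strain without the nanobody. The tether and the nanobody fusion on Ume6 cannot be told apart in this comparison. With untagged Ime1, the study reports that the fusion worsened the early-gene defect of T99N. At 4 h, 3 of the 39 genes were higher and 2 lower in tethered cells, against 19.2% and 18.5% of all genes, and at 6 h, 2 were higher and 3 lower (22.8% and 24.7%). CYC7 was higher both times. It had 102, 82.5 and 136 CPM in tethered and 49.2, 41.4 and 47.4 CPM in untethered cells at 4 h (1.22, SE 0.24, edgeR adjusted p = 4.18e-05). At 6 h it had 77.5, 72.4 and 102 CPM in tethered and 39.8, 30.8 and 37.1 CPM in untethered cells (1.23, SE 0.24, edgeR adjusted p = 2.81e-05). CYC7 was therefore lower with T99N and higher with the nanobody fusion and its tether, in comparisons that share no library.

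COX5B and COX8 of the oxidase moved apart in tethered cells. COX5B had 20.4, 26.8 and 17.0 CPM in tethered and 7.92, 6.60 and 7.63 CPM in untethered cells at 6 h (1.52, SE 0.23, edgeR adjusted p = 7.39e-08), and its change at 4 h was 0.21 (adjusted p = 0.499). COX8 had 17.2, 12.4 and 17.1 CPM in tethered and 39.7, 46.5 and 41.3 CPM in untethered cells at 6 h (-1.44, SE 0.26, edgeR adjusted p = 5.4e-06). The COX5B share of its pair was 10.2% ± 2.49 in tethered and 3.26% ± 0.327 in untethered cells (SD, n = 3 each). ATP17 and ATP4 were lower at 6 h, by log2 changes of -0.74 and -0.68, the second being lost without replicate 1 (edgeR adjusted p = 0.171) or 2 (0.0544). At 4 h SDH4 was higher by 0.93, a call lost without replicate 2 (edgeR adjusted p = 0.0652), and QCR2, COX8 and ATP17 lost theirs in at least 2 of the 3 fits without a replicate, so that 2, 2 and 3 genes were called without replicates 1, 2 and 3. Only the compared groups gave 15 calls at 4 h and 14 at 6 h. SHH4 and NCA3 were lower in tethered cells at 6 h, by log2 changes of -2.72 and -1.61, and HAP4 was higher by 1.23. NDT80 averaged 329 ± 157 TPM in tethered and 16.8 ± 4.59 TPM in untethered cells at 6 h (SD, n = 3 each), and its part in these differences was not tested.

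**Figure D4:**
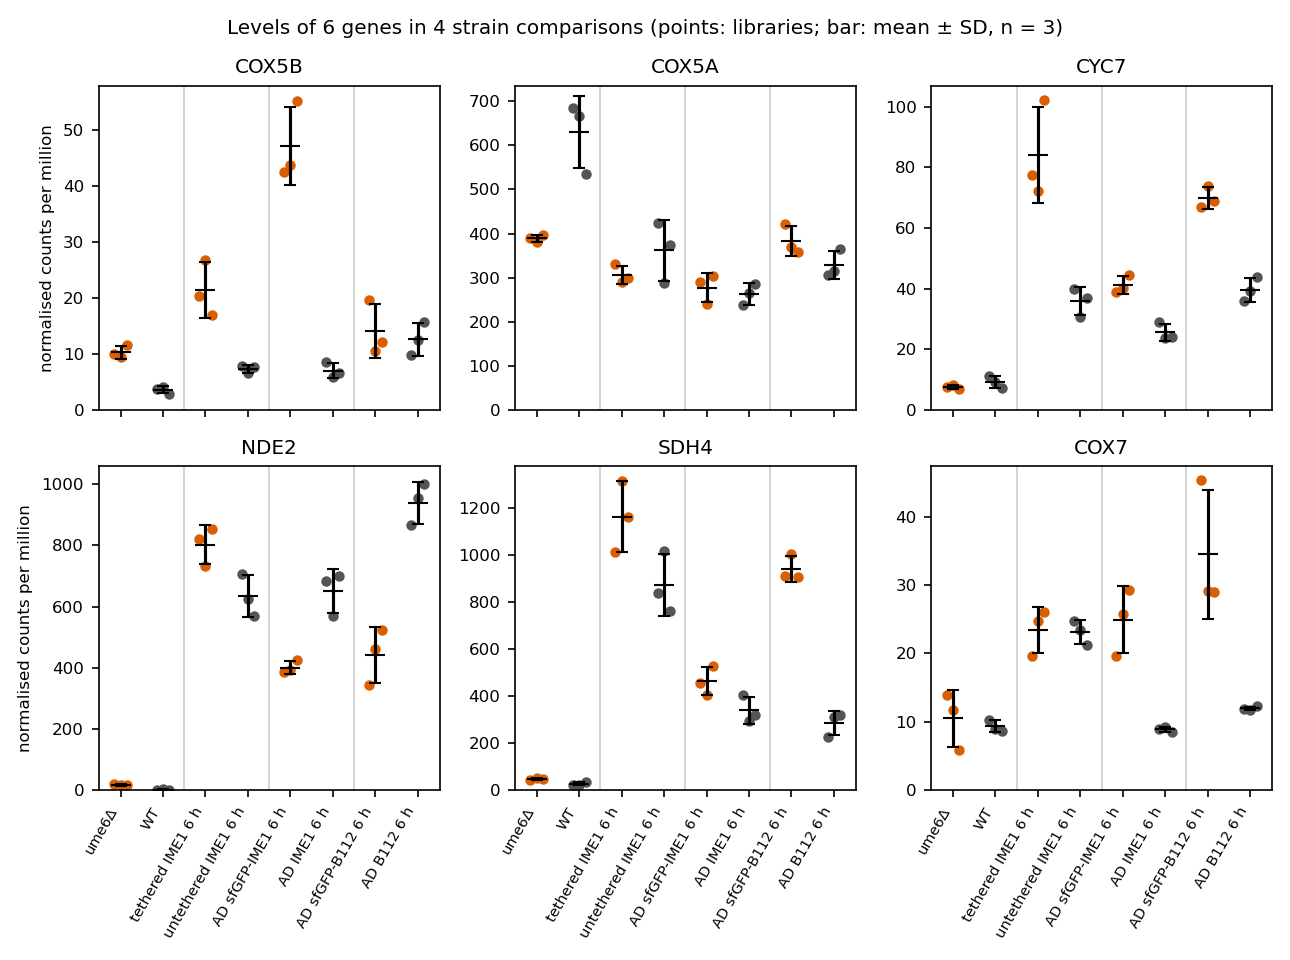
Normalised CPM of 6 genes are plotted for 4 strain comparisons, with the mutant or tethered strain (orange) left of its comparator (grey), 1 point a library and the mean ± SD of 3 as a bar; levels are not comparable across the vertical lines between experiments. COX5B did not overlap between the strains in the first 3 comparisons but overlapped between AD sfGFP-B112 (log2 change 0.15) and AD B112.

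In the AD experiment, the tethered form of each activation domain was compared with its untethered form at 6 h. With Ime1, 8 of the 39 genes were higher and 1 lower in sfGFP-IME1 than in IME1 cells, against 30.1% and 31.0% of all genes, and the median was 0.18. COX5B had 42.5, 43.8 and 55.2 CPM in sfGFP-IME1 and 8.55, 5.95 and 6.60 CPM in IME1 cells (2.75, SE 0.45, edgeR adjusted p = 2.41e-06), so that its share of the pair was 21.7% ± 2.09 in sfGFP-IME1 and 4.22% ± 1.14 in IME1 cells (SD, n = 3 each). COX7, a small oxidase subunit, had 19.7, 25.8 and 29.3 CPM in sfGFP-IME1 and 8.98, 9.27 and 8.52 CPM in IME1 cells (1.48, SE 0.23, edgeR adjusted p = 1.26e-06). SDH3 was the gene called lower (-0.80), and it lost its call without replicate 2 (edgeR adjusted p = 0.0724) or 3 (0.0776). Without replicate 3 the count was 4 genes, and a fit of only these groups called 14.

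The sign of that median rested on the scaling. The 20 most abundant transcripts took 41.1% to 41.5% of TPM in the sfGFP-IME1 libraries and 23.5% to 26.4% in the IME1 libraries. The median change of all genes was -0.80 in TPM and -0.05 with TMM, and that of the 39 was -0.58 in TPM and 0.18 with TMM, so that relative to all genes it was 0.23 under both. With a correction for gene length the median of the 39 itself was -0.14, beside -0.04 for all genes, and COX9 (1.04 with TMM) then changed by 0.36 (edgeR adjusted p = 0.105). NDT80 averaged 425 ± 97.0 TPM in sfGFP-IME1 and 15.1 ± 3.41 TPM in IME1 cells (SD, n = 3 each), and its part in these differences was not tested.

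With B112, 26 of the 39 genes were higher and 1 lower in sfGFP-B112 than in B112 cells, against 28.5% and 31.1% of all genes, with a median of 0.66 beside -0.05 for all genes. All 9 bc1 genes, 10 of 12 ATP synthase genes, 4 of 9 oxidase genes and 2 of 4 succinate dehydrogenase genes rose. SDH4 had 908, 1004 and 905 CPM in sfGFP-B112 and 225, 313 and 319 CPM in B112 cells (1.72, SE 0.28, edgeR adjusted p = 3.13e-06). COX7 had 45.4, 29.2 and 29.0 CPM in sfGFP-B112 and 11.9, 11.8 and 12.3 CPM in B112 cells (1.53, SE 0.23, edgeR adjusted p = 6.92e-07), and ATP20 rose by 1.49. The libraries of the strains did not overlap for these genes. NDE2 was the gene called lower, with 343, 461 and 523 CPM in sfGFP-B112 and 865, 953 and 1000 CPM in B112 cells (-1.09, SE 0.42, edgeR adjusted p = 0.0262), and it lost its call without replicate 1 (adjusted p = 0.0516) or 3 (0.177). Without replicate 3, 16 genes were called. In contrast to sfGFP-IME1, COX5B overlapped between the strains, with 19.6, 10.5 and 12.2 CPM in sfGFP-B112 and 9.77, 12.5 and 15.7 CPM in B112 cells (0.15). Whether the 2 tethers differ in their effect was not tested. HAP4 rose by 1.63 and ROX1 by 1.22, 22 of 59 assembly factors rose and 5 fell, and SHH4 fell by 3.63.

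Over the 21 comparisons, CYC7 was called most often (7 times higher, 3 lower), followed by NDE2 (4 and 5) and SDH4 (8 and 1). ATP20 was called 8 times, COR1, QCR6, COX9 and SDH1 6 times each and CYT1 5 times, always as higher, while COX8 was called lower 5 times and higher once. ATP15 and ATP18 were called 2 times each. These comparisons share libraries, so the tallies are no independent counts. No tally was made for all genes, so these do not show members called unusually often. From 2 to 6 h in the untagged UME6 strain alone, 34.2% of all genes were called higher and 42.9% lower.

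**Figure D5:**
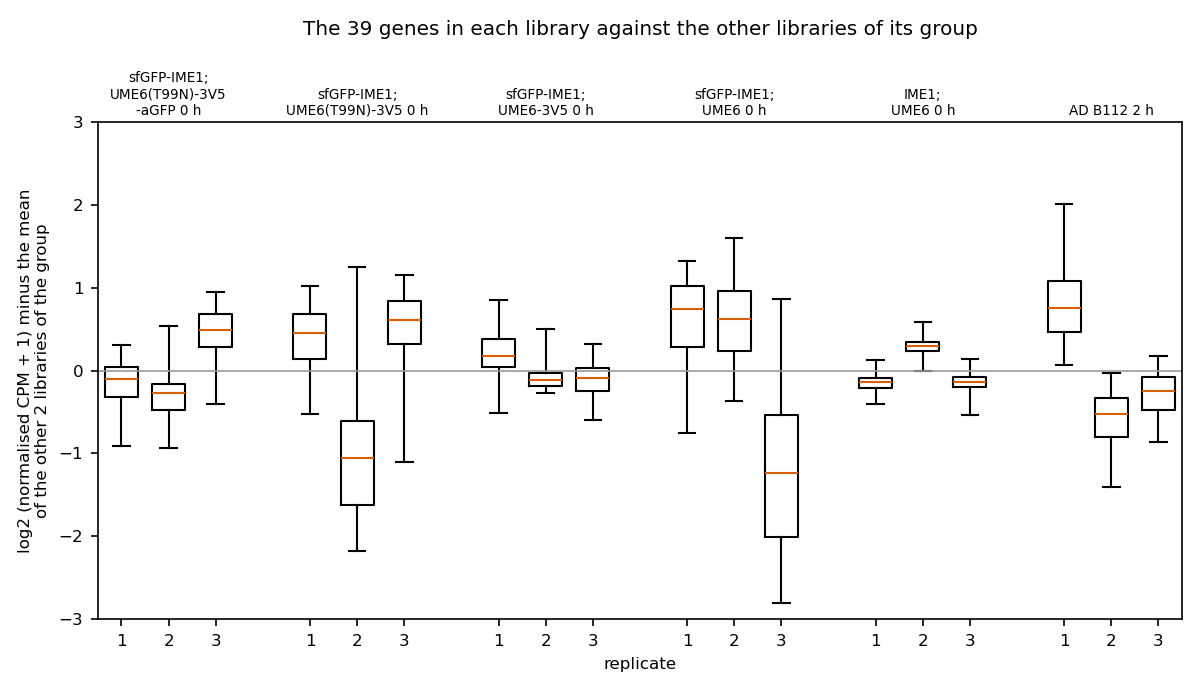
For each library of 6 groups, boxes show the spread over the 39 genes of log2 (normalised CPM + 1) minus the mean of the other 2 libraries of its group, with the median in orange and whiskers to the extremes. Replicate 3 of sfGFP-IME1; UME6 at 0 h (median -1.24) and replicate 2 of sfGFP-IME1; UME6(T99N)-3V5 at 0 h (median -1.06) lay low.

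In some libraries the 39 genes shifted together against the rest of their own group. Other deviating libraries had no such shift. In replicate 2 of sfGFP-IME1; UME6-3V5 at 4 h, the library of 44189 counts, the median deviation of the 39 was -0.08. The median absolute deviation of all genes was 0.89 there. In replicate 3 of sfGFP-IME1; UME6 at 0 h, the median deviation of the 39 genes from the other 2 libraries was -1.24 on the log2 scale. The median absolute deviation was 1.24 for the 39 and 0.32 for all genes. ATP2 had 484 CPM there, and 2857 and 2785 CPM in replicates 1 and 2, whereas HAP4 had 1091 CPM, and 364 and 321 CPM in the others. In replicate 2 of sfGFP-IME1; UME6(T99N)-3V5 at 0 h the median deviation was -1.06 (in absolute terms 1.07, and 0.41 for all genes). In the B112 strain at 2 h, all 39 genes of replicate 1 lay above the mean of the other 2 libraries (median 0.75). The median absolute deviation of all genes in that library was 0.17. Replicates 2 (median -0.53) and 3 (-0.25) lay below 0 in part because replicate 1 enters the mean they are set against. None of these libraries is in a group compared here, unlike replicate 3 of the meiotic depletion strain at 2 and 2.5 h, whose values stand with that comparison. Smaller shifts also occurred in compared groups. Replicate 2 of IME1; UME6 at 0 h had 38 of the 39 genes above the others (median 0.29). Replicate 2 of the mitotic depletion strain at 60 min had 37 above (0.25), and replicate 2 of the tethered strain at 4 h had 35 above (0.30). All genes had median absolute deviations of 0.14, 0.15 and 0.14 in these libraries, in the order named. The libraries outside the compared groups still enter the spread estimate of their experiment, and the counts from fits of only the compared groups do not use them.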

How the data were processed

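Poly(A) RNA from SK1 yeast was sequenced as 100-base single reads from directional libraries. According to the submitters' processing notes and the study's methods, HISAT2, SAMtools and StringTie were used for genome alignments and kallisto for transcript abundance (versions not given in the sources used here), with a fragment length of 160 and an SD of 20. The deposited tables hold estimated counts and TPM, 1 of each for every experiment, which the authors made with kallisto on SK1 transcripts. Between 92.21% and 98.38% of the estimated counts of a library were whole numbers, and all were rounded. Depth was 4603815 to 20789730 counts in mitotic, 4322697 to 12330746 in meiotic, 44189 to 14452545 in rescue and 6456844 to 23448759 in AD libraries. Among 222 pairs of replicates, 0 held identical values.

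Genes were tested with edgeR 4.0.16 in R 4.3.3 (quasi-likelihood test, TMM factors, filterByExpr by group, 1 mean per strain and time, 1 fit per experiment), with Benjamini-Hochberg adjustment over all genes tested and a threshold of 0.05. The standard error is the absolute log2 fold change over the root of F. Normalised CPM are not comparable across experiments, and TPM was used only for levels and shares. The script was tested on simulated data. Replicate numbers met the rule for pairing (correlations of deviations over 0.1 in every pair) only in the mitotic control course. Failing this rule does not show that samples were unpaired, and the main fit used no pairing. The members, the lists of neighbouring pathways and the comparisons were chosen with earlier results of these data known. Named in each comparison were up to 3 called members in each direction with the largest change whose libraries did not overlap in TPM, the alternative pairs with NDI1, HAP4 and ROX1, and up to 2 genes in each direction from the neighbouring lists. Further called members were chosen for naming with their values known. The alternatives tried were DESeq2 1.42.0, its size factors (RLE), no filter, only the compared groups, a replicate block, leaving out each replicate, and other treatments of the exchanged libraries; a correction for gene length and leaving out the shallow library were added after seeing the data. Promoter motifs and protein sequences were not analysed here.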

Additional observations from a re-analysis of the deposited data

Results flagged for a closer look

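The change from 2 to 6 h differed between the UME6(T99N)-3V5 and the untagged UME6 strain, both with IME1, for 13 of the 39 genes in the edgeR test of the difference itself. Of all genes, 35.8% had a higher change in the T99N strain and 25.7% a lower one, together a larger share than among the 39. The median difference of all genes was 0.25 on the log2 scale, T99N minus UME6, and the strains also differ in the 3V5 tag. The difference was -2.12 for COX5B and -0.97 for QCR9. In the UME6-3V5 strain, with the tag but not T99N, COX5B averaged 59.8 TPM at 2 h (without replicate 1) and 69.7 TPM at 6 h, which was not tested. The difference between the courses was 1.18 for COX12, 1.02 for NDE2, 0.90 for COX13 and 0.89 for COX8. In ATP synthase it was 1.09 for ATP2, 0.93 for ATP4, 0.88 for ATP5 and 0.59 for ATP17, and in the bc1 complex 0.88 for QCR2, 0.85 for QCR8 and 0.61 for RIP1. COX5B kept its call whichever replicate was left out, and each of the other 12 genes lost its call without at least 1 of them. Leaving out replicate 1, 2 or 3 gave 3, 4 and 8 calls, and DESeq2 gave 9.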

How the results depend on the processing

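No named gene called in edgeR reversed its direction under any alternative run. Counts were only classed by whether their total moved by over 1.5 times, not by direction. With only the compared groups in the fit, the number of the 39 genes called was 15, 0 and 0 for mitotic depletion at 15, 30 and 120 min, 0 for meiotic depletion at 2 h, 7 and 10 for T99N against UME6-3V5 at 4 and 6 h, 15 and 14 for the tether at 4 and 6 h, and 14 for sfGFP-IME1 against IME1. For mitotic depletion at 60 min it was 3 with RLE, 4 with DESeq2, 2 with the replicate block and 2 with the length correction, and for meiotic depletion at 2 h it was 1 with RLE, 1 with the block and 1 with the length correction. The length correction gave 3 for the tether at 4 h. With the exchanged libraries kept under the count table's labels, the count was 1 for T99N against UME6-3V5 at 6 h and 2 for the tether at 4 h. The cause of these shifts was not tested. The replicate block moved no other count by over 1.5 times. Of 303 named values, 12 lost their call with the length correction, 6 with the block, 4 with DESeq2, 1 with no filter and 0 with RLE, as did 17 of 301 with only the compared groups and 11 of 105 with the exchanged libraries kept under the count table's labels. Among the 39 genes, those lost with only the compared groups were ATP20 (30 min), NDE2 (30 and 120 min) and QCR2 (60 min) in mitotic depletion, ATP17 (2 h) and COX5B (6 h) in meiotic depletion, and COX5B in the mitotic control course and the meiotic control from 2 to 6 h. With the length correction they were NDI1 and QCR10 in mitotic depletion at 15 min, COX5A in the meiotic control from 2 to 6 h, COX9 in sfGFP-IME1 against IME1, ATP17 in T99N from 2 to 6 h, and COX8 and QCR2 for the tether at 4 h. With the block they were ATP17 in meiotic depletion at 2 h and in T99N from 2 to 6 h, QCR2 for the tether at 4 h and NDE1 in sfGFP-IME1 against IME1, with DESeq2 CYC7 in T99N from 2 to 6 h, and with no filter NDI1 in mitotic depletion at 15 min. With the exchanged libraries kept they were ATP17, NDI1 and CYC7 in T99N from 2 to 6 h, CYC7 in UME6 from 2 to 6 h, SDH1 in T99N against UME6-3V5 at 6 h, COX8 and QCR2 for the tether at 4 h and ATP4 for the tether at 6 h.

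Without 1 replicate, the counts for mitotic depletion were 0 to 0, 0 to 4, 0 to 2, 0 to 5 and 0 to 1 at 0, 15, 30, 60 and 120 min, 12 to 22 for ume6Δ and 29 to 35 for the mitotic control course. They were 0 to 2, 0 to 1 and 0 to 5 for meiotic depletion at 2, 2.5 and 6 h, and 4 to 12 and 22 to 30 for the meiotic control up to 2 h and from 2 to 6 h. In the rescue experiment they were 22 to 31 and 16 to 22 for UME6 from 0 to 2 and from 2 to 6 h, 6 to 12 for T99N from 2 to 6 h, 1 to 1 and 1 to 2 for T99N against UME6-3V5, 2 to 3 and 4 to 6 for the tether, and 3 to 8 for the difference between courses. They were 4 to 8 for sfGFP-IME1 and 16 to 27 for sfGFP-B112. Leaving out the shallow library, or exchanging the labels of the 2 exchanged libraries, left each of the 105 named values of the rescue experiment on its side of the threshold.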
